A study of Mus musculus with 4 samples.

Results

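Pura, Igip and Cystm1 are 3 genes that follow each other on the same strand of mouse chromosome 18, and they are described here in RNA that was immunoprecipitated with the kinase TSSK2, together with Purb and Purg, the paralogues of Pura. These 5 genes are among the 21936 genes of the count table. The first 3 were picked because they were higher in TSSK2 precipitates than in IgG controls in earlier results of the same libraries, so their differences in that comparison are given as a description with no p-value. Purb and Purg were picked for their relation to Pura and are treated in the same way.

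The study compared a specific antibody with a control antibody, each in 2 libraries. Germ cells were released from the testes of adult C57BL/6 mice and cross-linked, and the pellet of the sonicated lysate was precipitated with an anti-TSSK2 antibody (TSSK2-IP) or with mouse IgG (control IgG-IP). TSSK2 is a testis-specific serine kinase of elongating spermatids that is found in the late chromatoid body, a granule of RNA and protein. All samples came from unmodified animals, and the labels do not say whether the 2 libraries of a group came from separate animals, so the spread between them may be technical.

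Pura encodes Pur-alpha, a protein that binds single-stranded purine-rich DNA and RNA and travels with mRNAs in kinesin-bound granules in neurons. Its paralogues Pur-beta (Purb) and Pur-gamma (Purg) share the nucleic acid-binding repeats that name the family. Igip encodes a small secreted protein known for promoting IgA production by B cells, and Cystm1 encodes a small protein with a cysteine-rich transmembrane module. Many mRNAs of spermatids are transcribed early, stored in granules and translated after transcription has stopped.

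On the genome build GRCm38, Pura (ENSMUSG00000043991) lies on chromosome 18 from 36281097 to 36292535, Igip (ENSMUSG00000110185) from 36298679 to 36301517 and Cystm1 (ENSMUSG00000046727) from 36342520 to 36403097, all on the plus strand. A gap of 6143 bases separates Pura from Igip, one of 41002 bases separates Igip from Cystm1, and the 3 genes together span 122 kb. Purb (ENSMUSG00000094483) lies on the minus strand of chromosome 11 from 6467599 to 6475917. Purg (ENSMUSG00000049184) lies on the plus strand of chromosome 8 from 33386325 to 33417467.

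The genes differ in structure. Igip and Purb are annotated with 1 exon, of 2839 and 8319 bases. Pura has 2 exons with 5957 bases, Purg 2 exon blocks with 1975 bases, and Cystm1 has 13 annotated transcripts whose exons merge into 11 blocks with 4261 bases. The exons of Igip are poor in G and C, at 37.6%, and only 2.11% of the genes tested had a lower GC content. The GC content was 43.3% for Pura, 47.9% for Cystm1, 42.1% for Purb and 46.7% for Purg.

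No exon of Pura, Igip, Cystm1 or Purg overlapped another annotated gene, and no other gene matched their transcripts over 150 bases or more at 97% identity. The longest alignment between the transcripts of Pura and Purb was 832 bases with 76.3% identity, and that between Pura and Purg was 220 bases with 71.8% identity. Purb overlapped the opposite-strand gene Gm11973 over 285 exon bases and the same-strand gene Gm22123 over 53. The strand setting of the counting is not given in the sources used here. With these overlaps, a small part of the Purb counts is uncertain.

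The libraries held between 3938922 and 9858941 counts. They were scaled with edgeR's TMM method, and 14722 genes passed its filter on low counts, among them all 5 genes described here. Levels are given as normalized CPM, counts scaled to a common library size, in which 1 count was worth between 0.156 and 0.230 CPM. The TMM factor was 0.652 in control IgG-IP replicate 1 and between 1.12 and 1.18 in the other 3 libraries, so the scaling weighs on the level of that control. Spermatid markers were abundant in every library, and the protamine mRNA Prm2 had 1363 and 1103 CPM in TSSK2-IP and 2788 and 1689 in control IgG-IP. The summed level of the 6 spermatid markers ranged from 2811 to 4510 CPM and that of the 5 spermatocyte markers, led by Hspa2, from 1128 to 3474. The 5 spermatogonial markers, led by Kit, summed to between 29.7 and 46.6 CPM.

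Markers of somatic cells were low. The 6 Sertoli cell markers, led by Clu, summed to 51.6 and 36.9 CPM in TSSK2-IP and to 16.7 and 38.4 in control IgG-IP. The 5 Leydig cell markers, led by Cyp17a1, summed to 35.5 and 33.3 CPM in TSSK2-IP and 14.0 and 34.9 in control IgG-IP. The 4 peritubular markers, led by Myh11, summed to between 14.4 and 32.2 CPM and the 6 macrophage and blood markers, led by Adgre1, to between 19.4 and 28.2. No listed marker was at 0 counts in all 4 libraries, and none passed the thresholds given below in either direction. Sertoli and Leydig cell markers were thus lowest in control IgG-IP replicate 1, and their part in the results was not tested.

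Pura was the most even of the 5 genes between libraries of a group. It had 81.1 and 81.4 CPM in TSSK2-IP replicates 1 and 2, from 391 and 428 counts, and 17.9 and 18.8 CPM in the controls, from 115 and 82 counts. Both TSSK2-IP libraries lay at least 4.30-fold above both controls, and the group means were 81.3 ± 0.272 and 18.4 ± 0.635 CPM (SD, n = 2 each). The log2 fold change was 2.14 (standard error 0.41), a 4.42-fold difference. The closeness of the controls rests on the scaling: in CPM of the plain library total, without TMM factors, Pura had 11.7 in control IgG-IP replicate 1 and 20.8 in replicate 2, against 94.0 and 95.3 in TSSK2-IP. The order of the groups was the same on both scales.

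Igip showed the widest difference. It had 37.3 and 33.1 CPM in TSSK2-IP, from 180 and 174 counts, against 4.21 and 2.53 CPM in the controls, from 27 and 11 counts. The groups did not overlap, and each TSSK2-IP library lay between 7.86-fold and 14.8-fold above each control. The means were 35.2 ± 2.97 and 3.37 ± 1.19 CPM (SD, n = 2 each), with a log2 fold change of 3.35 (standard error 0.47). The 95% Poisson interval of the 11 counts in control IgG-IP replicate 2 ran from 1.26 to 4.52 CPM, so the control level of Igip was known only within wide limits, and this interval covers counting error only. An offset for GC content and exon length moved the log2 fold change of Igip to 2.78.

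Cystm1 was the most abundant of the 5 genes in TSSK2-IP. It had 149 and 144 CPM there, from 719 and 759 counts, and 20.6 and 40.7 CPM in the controls, from 132 and 177 counts. Both TSSK2-IP libraries were at least 3.55-fold above both controls, although the controls themselves differed by nearly a factor of 2. The means were 146.7 ± 3.27 and 30.6 ± 14.2 CPM (SD, n = 2 each), and the log2 fold change was 2.26 (standard error 0.48).

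Purb, the closer paralogue of Pura by transcript alignment, did not follow the same pattern. It had 87.5 and 81.1 CPM in TSSK2-IP, from 422 and 426 counts, and 102 and 56.98 CPM in the controls, from 655 and 248 counts. The TSSK2-IP libraries of Purb lay between the 2 control libraries in normalized CPM. That order rested on the scaling: in CPM of the plain library total, Purb had 101.5 and 94.8 in TSSK2-IP. The plain values in control IgG-IP replicates 1 and 2 were 66.4 and 62.96, below both TSSK2-IP libraries. The log2 fold change of Purb, 0.081 (standard error 0.44), turned to -0.061 with DESeq2's size factors and to -0.030 with DESeq2. Its group means were 84.3 ± 4.54 and 79.6 ± 32.0 CPM (SD, n = 2 each).

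Purg was the least abundant of the family. It had 9.74 and 6.47 CPM in TSSK2-IP, from 47 and 34 counts, and 4.37 and 2.99 CPM in the controls, from 28 and 13 counts. Both TSSK2-IP libraries of Purg were above both controls, by 1.48-fold at the least, with a log2 fold change of 1.12 (standard error 0.59). The 95% Poisson intervals of TSSK2-IP replicate 2, from 4.48 to 9.04 CPM, and of control IgG-IP replicate 1, from 2.90 to 6.31 CPM, overlapped.

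**Figure D1:**
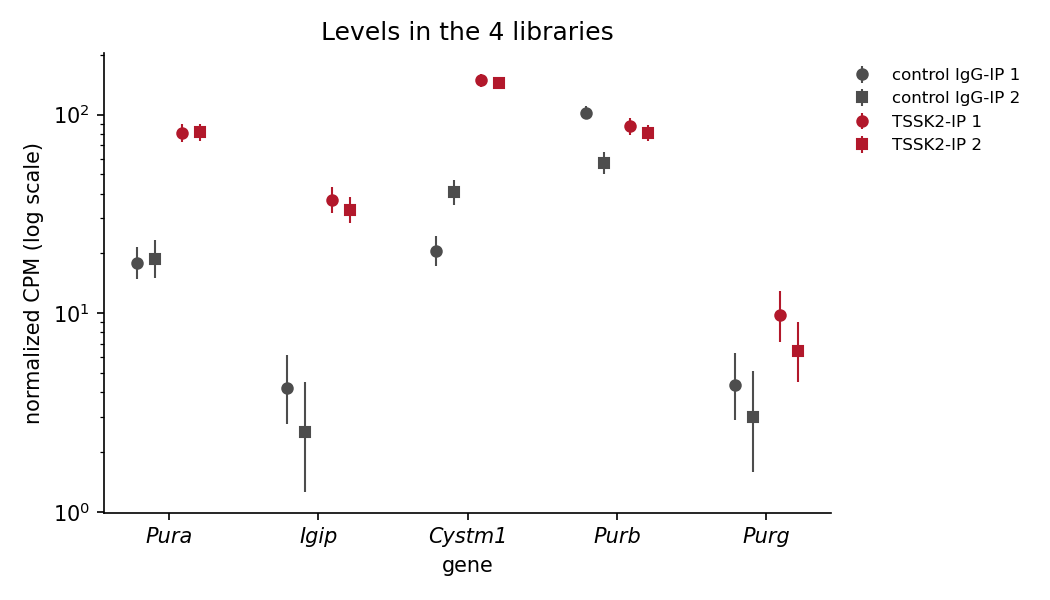
Normalized CPM on a log axis of Pura, Igip, Cystm1, Purb and Purg in the 2 control IgG-IP and the 2 TSSK2-IP libraries, with 95% Poisson intervals of the counts as bars. The TSSK2-IP libraries of Pura, Igip and Cystm1 lie at least 3.55-fold above the controls. Those of Purb, at 87.5 and 81.1 CPM, lie between the controls at 102 and 56.98 CPM, an order that rested on the scaling.

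An immunoprecipitate gives the share of its RNA that a gene takes, so more copies of an mRNA in the complexes and fewer copies of other RNAs cannot be told apart, and neither can a change in the number of cells and in the RNA of each cell. In order of log2 fold change, Igip stood at place 55 of the 14722 genes tested, Cystm1 at 189, Pura at 215, Purg at 1278 and Purb at 6655. Cystm1 and Pura differed by less than their standard errors. A gene passed as higher where its log2 fold change reached 1 and its adjusted p (edgeR's quasi-likelihood test, Benjamini-Hochberg) did not exceed 0.05, and 0.693% of the genes tested passed. Pura, Igip and Cystm1 were among these and Purb and Purg were not, which describes how the genes were picked and is no evidence of its own. Cystm1 no longer passed with DESeq2's size factors or with at least 10 counts in each library, and Purg passed without control IgG-IP replicate 1. Of the 5 genes, Igip alone passed with upper-quartile normalization, with offsets for GC content and length or without TSSK2-IP replicate 2, and without TSSK2-IP replicate 1 none passed. In each of these 3 genes all pairs of a TSSK2-IP and a control library differed at least 2-fold upward, an order that 4.01% of the genes tested showed. None of the 5 genes lay 2-fold below the controls in every library, as 0.312% of the genes tested did.

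Because the genes differ in length, their levels were also set side by side as CPM per kb of annotated exon. In TSSK2-IP, Cystm1 had the highest level, at 34.4 ± 0.768 CPM per kb (SD, n = 2), followed by Pura at 13.6 ± 0.0457, Igip at 12.4 ± 1.05, Purb at 10.1 ± 0.546 and Purg at 4.11 ± 1.17. The levels per kb of Pura and Igip were not distinguishable at this depth, as the Poisson intervals in TSSK2-IP replicate 1, from 12.3 to 15.02 and from 11.3 to 15.2, covered much the same range. In control IgG-IP the order was different, with Purb highest at 9.57 ± 3.84 CPM per kb, Cystm1 at 7.19 ± 3.33, Pura at 3.09 ± 0.107, Purg at 1.86 ± 0.495 and Igip at 1.19 ± 0.420. Purb and Cystm1 overlapped between the control libraries. Pura thus had a level per kb below that of Purb in both control libraries and above it in both TSSK2-IP libraries. The exon length of Cystm1 counts all 13 transcripts, so its level per kb is a low estimate if only a short form was present.

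The difference between the 2 libraries of a group was not used to choose the genes. In TSSK2-IP the log2 difference between replicates was -0.0068 for Pura, 0.045 for Cystm1, 0.11 for Purb, 0.17 for Igip and 0.56 for Purg. Of the genes tested, 1.69% had a smaller TSSK2-IP difference than Pura and 83.3% a smaller one than Purg. In the controls the log2 difference was -0.069 for Pura, 0.50 for Purg, 0.66 for Igip, 0.84 for Purb and -0.97 for Cystm1, each as replicate 1 minus replicate 2. Only 3.93% of the genes tested had a smaller control difference than Pura. That closeness rested on the scaling, since its plain CPM in control replicates 1 and 2 were 11.7 and 20.8. The other 4 genes were ordinary in the controls, with between 29.1% and 57.3% of genes below them. Cystm1 was thus higher in control replicate 2, also in CPM of the plain total (13.4 and 44.9), and Purb in control replicate 1. For Igip and Purg the direction rested on the scaling, since their plain CPM were 2.74 and 2.79, and 2.84 and 3.30, in control replicates 1 and 2.

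Leaving out a control library moved the genes in unequal ways. Without control IgG-IP replicate 1 or 2 the log2 fold change was 3.84 or 2.99 for Igip, 1.91 or 2.76 for Cystm1 and 0.62 or -0.35 for Purb. For Pura it stayed between 2.11 and 2.16 with any library left out, and for Purg it lay between 0.78 and 1.48. Across all 11 alternative ways to process the data the value was between 1.99 and 2.20 for Pura, between 2.78 and 3.84 for Igip, between 1.91 and 2.76 for Cystm1 and between 0.78 and 1.48 for Purg. Purb was the only one of the 5 genes whose direction changed, within a range from -0.35 to 0.62.

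**Figure D2:**
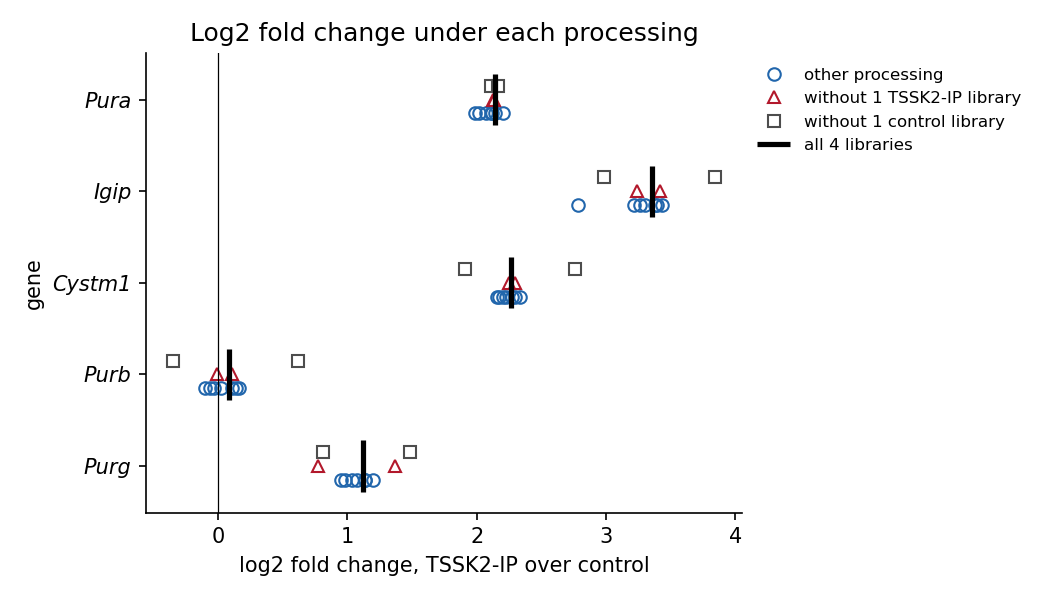
Log2 fold change of TSSK2-IP over control IgG-IP for each gene, with all 4 libraries (black bars), without 1 TSSK2-IP library (triangles), without 1 control library (squares) and under the other 7 processing alternatives (circles). Pura stays between 1.99 and 2.20, Igip spreads from 2.78 to 3.84, and Purb lies on both sides of 0, including when the scaling is changed.

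The question of whether the difference extends along the chromosome was addressed with every gene of the table whose start lay within 500 kb of Pura, Igip and Cystm1, chosen by position. There were 22 such genes, of which 19 were tested, 5 of them within 250 kb. Most of the neighbours lay downstream of Cystm1, so the upstream side was thinly covered. None of the 19 passed the thresholds in either direction by edgeR's quasi-likelihood test (0 higher and 0 lower) or by DESeq2 (0 and 0). Of all genes tested, 0.693% passed as higher and 0% as lower. At an unadjusted p under 0.05 (edgeR's quasi-likelihood test) there was 1 higher and 1 lower, beside 1228 and 720 of the 14722 genes tested. The median log2 fold change of the 19 neighbours was -0.12, beside -0.019 over all genes tested, with 9 above and 10 below 0. The fitted value reached 1 in 1 neighbour and -1 in 2, as it did in 11.1% and 9.88% of all genes. Both TSSK2-IP libraries lay above both controls for 3 of the neighbours and below both for 5, orders that 27.3% and 21.6% of all genes showed. Without control IgG-IP replicate 2 the median of the neighbours was -0.16, beside 0.16 over all genes tested. Without control IgG-IP replicate 1 it was 0.045, beside -0.0028.

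Neither of the tested genes next to the 3 passed the thresholds. Upstream, Nrg2, a neuregulin growth factor gene on the opposite strand, lies 83716 bases from Pura. It had 2.49 and 6.47 CPM in TSSK2-IP against 2.34 and 2.76 in the controls, and its groups overlapped (log2 fold change 0.82, standard error 0.76, adjusted p = 0.637, edgeR). Downstream, Pfdn1, which encodes a subunit of the prefoldin chaperone, runs toward Cystm1 on the opposite strand and ends 578 bases from it. It had 12.9 and 14.3 CPM in TSSK2-IP and 36.4 and 18.2 in the controls. Both TSSK2-IP libraries of Pfdn1 were thus below both controls, the reverse of Cystm1, with a log2 fold change of -1.01 (standard error 0.44, adjusted p = 0.357, edgeR). Without control IgG-IP replicate 1 it was -0.36.

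A pair of further neighbours differed at least 2-fold in the fit. Apbb3, an adaptor of the amyloid precursor protein, had 16.2 and 12.0 CPM in TSSK2-IP and 3.75 and 7.58 in the controls, with a log2 fold change of 1.33 (adjusted p = 0.307, edgeR). The splicing factor gene Ik had 100.5 and 102.9 CPM in TSSK2-IP and 271 and 138 in the controls, a log2 fold change of -1.01 (adjusted p = 0.404, edgeR). The groups overlapped for neither gene, and both depended on the controls. Without control IgG-IP replicate 1 the values were 0.94 for Apbb3 and -0.39 for Ik, and without replicate 2 they were 1.83 and -1.48.

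The protocadherin clusters, which encode adhesion proteins, begin with Pcdha1, 527 kb beyond Cystm1. With the window widened to 1000 kb, 47 genes were tested and 11 passed as higher by edgeR's quasi-likelihood test, all of them protocadherins. All 18 tested protocadherins in this window had a positive log2 fold change, and their median was 3.51. The 29 other neighbours were divided, with 15 above and 14 below 0, and 0 of them passed (1 higher and 1 lower at an unadjusted p under 0.05). Alpha protocadherins share 3′ exons, but their counts differed, with 1 for Pcdha4 and 311 for Pcdha2 in control IgG-IP replicate 1. How reads in the shared exons were counted is not given in the sources used here. Whether the counts of these genes are independent of each other was not tested.

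**Figure D3:**
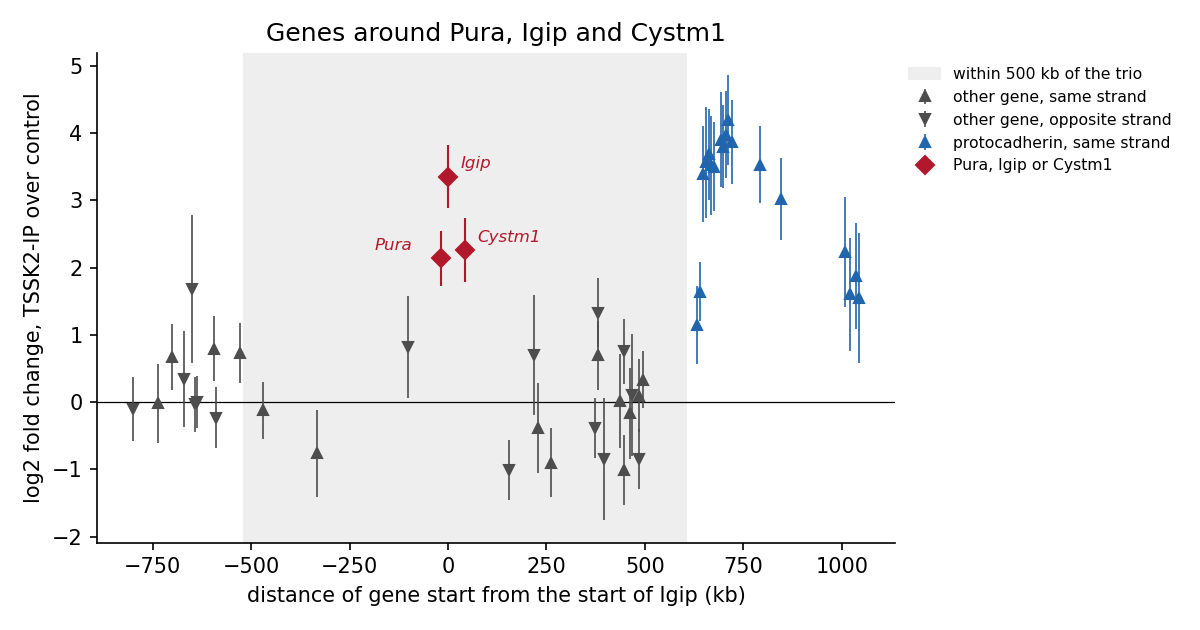
Log2 fold change of TSSK2-IP over control IgG-IP, with standard errors as bars, of the genes tested around Pura, Igip and Cystm1, by the distance of their start from the start of Igip in kb. The 3 genes, at 2.14 to 3.35, stand between neighbours from -1.01 to 1.33 in the grey window, and the protocadherins to the right reach 4.19.

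Runs of neighbouring genes of this kind were counted over all chromosomes, as a description. A run was at least 3 genes that follow each other on a strand among those tested, each with every TSSK2-IP library at least 2-fold above every control library. There were 12 runs, which held 64 genes. Of these, 2 consisted of protocadherins and 5 held olfactory or vomeronasal receptors. Pura, Igip and Cystm1 formed one of the other 5. The remaining 4 were Gm21992, Rbm4 and Rbm14 on chromosome 19, Umad1, Glcci1 and Nxph1 on chromosome 6, and on chromosome 5 Gm11111, Vamp9 and Enoph1 as well as Gpr146, C130050O18Rik and Mafk. The run of Pura, Igip and Cystm1 spanned 122 kb, the run with Rbm4 68.7 kb, and the last 3 between 425 and 1520 kb. At a 1.5-fold difference there were 28 runs, and 5 where only genes that reached 10 counts in each library were used. Pura, Igip and Cystm1 formed a run under both settings. These genes were picked as higher in the same comparison, so their run is no evidence of its own.

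Igip and Purb share the feature of a single exon block. The 410 tested genes of this class, which was chosen after the values were seen, had 0.20 as their median log2 fold change. In 35 of them (8.54%) the 2-fold gap held between every library pair, beside 588 of the 14710 annotated genes tested.

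The genes whose profile over the 4 libraries was nearest to the mean profile of Pura, Igip and Cystm1, by Euclidean distance of centred log2 CPM, were Magi2, Lrmda and Kcnf1. Magi2 encodes a scaffold protein of cell junctions and Kcnf1 a subunit of voltage-gated potassium channels. Magi2 had 312 and 284 CPM in TSSK2-IP and 52.1 and 59.5 in the controls, at a distance of 0.180. Lrmda had 10.8 and 8.75 CPM in TSSK2-IP and 1.09 and 1.38 in the controls, the latter from only 7 and 6 counts, at a distance of 0.194. Kcnf1 had 27.4 and 22.3 CPM in TSSK2-IP and 3.75 and 4.83 in the controls, at a distance of 0.258. Kcnf1 passed the thresholds and Magi2 and Lrmda did not, which is no evidence of its own because likeness picked these genes. Magi2, Lrmda and Kcnf1 lie on chromosomes 5, 14 and 12, away from the locus. The distance to the mean profile was 0.460 for Pura, 0.646 for Cystm1, 0.900 for Igip, 1.62 for Purg and 2.53 for Purb. For Pura, Cystm1 and Igip, 17, 54 and 143 genes, respectively, were nearer, with these genes themselves counted. Between pairs, the distance was 0.669 for Pura and Cystm1, 1.275 for Pura and Igip and 1.498 for Igip and Cystm1. Purg, at 1.205, was nearer to Pura than Igip was, but lay at 1.677 from Cystm1 and 2.243 from Igip.

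The mRNAs of other proteins known from kinesin-bound RNA granules with Pur-alpha and Pur-beta were looked up as a list of 16 genes, among them the KIF5 motors, and all 16 were tested. None passed the thresholds by edgeR's quasi-likelihood test (0 higher and 0 lower) or by DESeq2 (0 and 0), against 0.693% and 0% of all genes. At an unadjusted p under 0.05 (edgeR's quasi-likelihood test) there were 3 higher and 1 lower, beside 1228 and 720 of the 14722 genes tested. The median log2 fold change was -0.41, beside -0.019 over all genes, with 7 genes above and 9 below 0. Both TSSK2-IP libraries lay above both controls for 5 of the genes and below both for 7, orders that 27.3% and 21.6% of all genes showed. The median rested on the controls. Without control IgG-IP replicate 2 it was -0.25, beside 0.16 over all genes tested. Without control IgG-IP replicate 1 it was -0.00169, beside -0.0028.

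Among the higher values of this list was that of Syncrip, which encodes an RNA-binding protein of mRNA transport. It had 107 and 81.1 CPM in TSSK2-IP and 32.9 and 51.5 in the controls, and its groups did not overlap (log2 fold change 1.15, adjusted p = 0.293, edgeR). The lowest values belonged to Eef1a1, a translation elongation factor, and Hnrnpu, a nuclear RNA-binding protein. Eef1a1 had 582 and 543 CPM in TSSK2-IP and 3431 and 851 in the controls (log2 fold change -1.93, adjusted p = 0.397, edgeR). Hnrnpu had 686 and 658 CPM against 2009 and 873 (log2 fold change -1.10, adjusted p = 0.556, edgeR). In both of these genes the control libraries differed from each other by more than 2-fold. Eef1a1 was at -0.54 and Hnrnpu at -0.32 when control IgG-IP replicate 1 was left out.

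**Figure D4:**
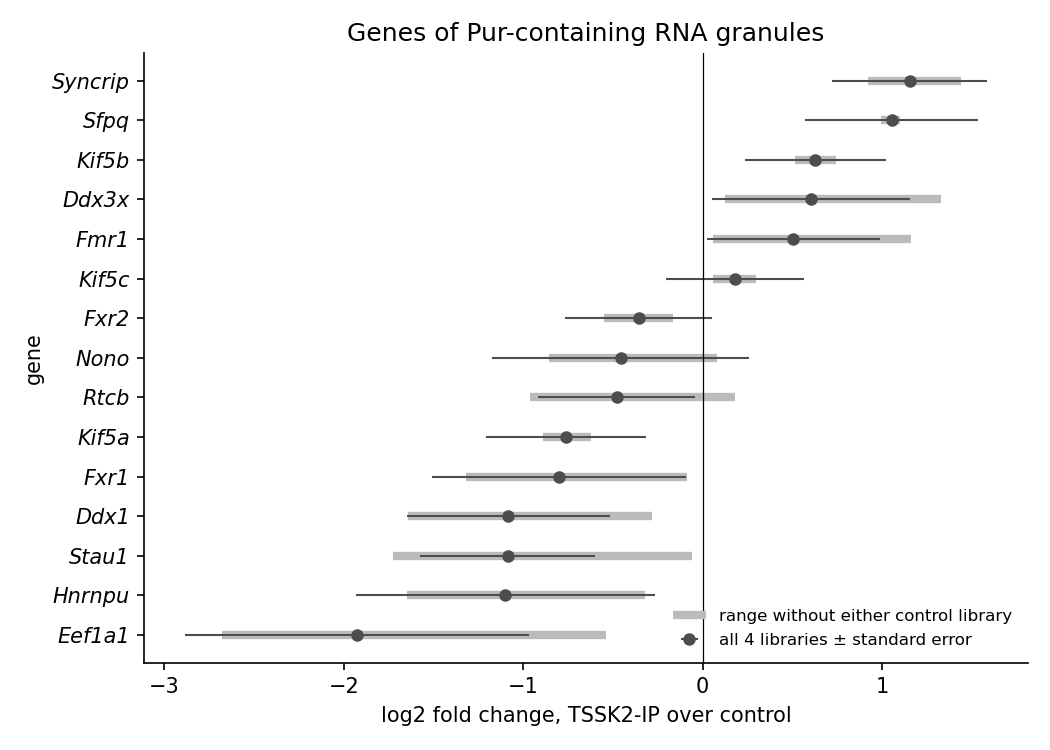
Log2 fold change of TSSK2-IP over control IgG-IP for mRNAs of the list of proteins that share RNA granules with Pur-alpha and Pur-beta, with standard errors as thin bars and the range of the values without either control library as grey bars. The values shown run from -1.93 for Eef1a1 to 1.15 for Syncrip, and 1 gene of the list is not drawn.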

How the data were processed

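From directional libraries made without rRNA removal, the authors trimmed reads (Trimmomatic 0.39), aligned them to GRCm38 (STAR), assigned them to genes (featureCounts 2.0.3) and deposited raw counts, whole numbers without normalization. The strand setting of the counting is not given in the sources used here. Normalized CPM, log2 fold changes and tests were computed here from these counts with edgeR 4.0.16 in R 4.3.3 (filterByExpr, TMM, glmQLFit, glmQLFTest), adjusted by Benjamini-Hochberg over 14722 genes. Standard errors were derived from edgeR's F statistic. DESeq2, the authors' tool (1.42.0 here), other scalings and filters, a replicate block, offsets for GC content and length, and leaving out each library were alternatives. An exact permutation of 2 libraries against 2 reaches p = 0.333 at the lowest (two-sided), so p-values rest on a spread shared across genes. Poisson intervals are exact at 95%. The fits were also run on simulated counts. There the 2 controls had the same mean profile, so unequal controls like those here were not covered.

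The genes, lists and tests were chosen with earlier results of these data known. Named were the 5 genes, neighbours within 500 kb that passed or differed at least 2-fold and the nearest on each side, the 3 nearest profiles, the 2 highest and 2 lowest granule genes and the most abundant marker of each list, except that 1 of the granule genes is not reported here by name. Positions came from GENCODE vM21 (GRCm38), which held 21894 of 21936 identifiers, and similar transcripts were found with BLAST+ 2.17.0.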

Additional observations from a re-analysis of the deposited data

How the results depend on the processing

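With 2 libraries a group and unequal controls, counts of calls depended on the processing, whereas the direction of Pura, Igip, Cystm1 and Purg held under all 11 alternatives and that of Purb did not. Over all genes, 102 passed as higher and 0 as lower. The counts were 160 and 1 with DESeq2, 20 higher with upper-quartile normalization, 283 and 24 without a filter on low counts, 29 higher with at least 10 counts in every library, and 274 and 3 with the replicate number as a block. With each library left out in turn they ranged from 23 to 2755 higher and from 0 to 2688 lower. The median of all genes was -0.20 with DESeq2, -0.14 with its size factors and -0.15 without the filter, beside -0.019.

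Pura was at 2.07 with DESeq2, 2.02 with DESeq2's size factors, 2.20 with at least 10 counts in every library and 1.99 with offsets for GC content and length. Igip was at 2.78 with those offsets and between 2.99 and 3.84 with a library left out, and Cystm1 between 1.91 and 2.76. Purb was at -0.030 with DESeq2, -0.061 with its size factors and -0.11 with the offsets, and between -0.35 and 0.62 with a library left out. Of the 5 genes, only Igip passed with upper-quartile normalization, with the offsets or without TSSK2-IP replicate 2, Pura and Igip passed with DESeq2's size factors or at least 10 counts in every library, and 0 passed without TSSK2-IP replicate 1. Purg passed only without control IgG-IP replicate 1.

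Among neighbours within 500 kb, leaving out a library gave a median between -0.44 and 0.045. The median was -0.39 within 250 kb and 0.73 within 1000 kb, where 11 passed as higher because the window takes in protocadherins. For the granule list, leaving out a library gave from 0 to 4 higher, from 0 to 5 lower and a median between -0.49 and -0.00169, and the median was -0.53 with DESeq2's size factors. The number of runs was 12, 28 at 1.5-fold and 5 with at least 10 counts in every library.

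The libraries share replicate numbers, but nothing says that equal numbers are pairs, and the deviations of libraries with the same number correlated at 0.126 over genes. With the replicate block Pura, Igip and Cystm1 passed again and the neighbours and the granule list kept 0 calls. Depth limited Igip, with 11 counts in 1 control library, and Purg, with 13.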
